A study of Homo sapiens with 24 samples.

Results

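Clones of human HaCaT keratinocytes that carry hsa-miR-186 were compared with and without inorganic arsenic (iAs) after 29 weeks of culture. The comparison was chosen by the sample labels alone: 3 libraries kept at 100 nM iAs against 3 libraries kept at 0 nM, which is 6 of the 24 libraries in the series. HaCaT is an immortalised line of skin keratinocytes that is not malignant, and the series follows arsenic-induced skin carcinogenesis in it. According to the labels, 3 clonal lines were transduced with hsa-miR-186 and 3 with an empty vector, each line was carried at 0 and at 100 nM iAs, and RNA was taken at weeks 12 and 29. All 6 libraries therefore come from clones selected after transduction, and both doses carry the microRNA construct. The labels name neither its promoter nor which clone a replicate number stands for. They call the samples independent biological triplicates and say no more, so p-values measure the spread between libraries. Each gene's spread, and so its standard error, was estimated over all 24 libraries in 8 groups, not from these 6 alone. The vector clones at week 29 (0 nM, 3 libraries; 100 nM, 3 libraries) and the miR-186 clones at week 12 (0 nM, 3 libraries; 100 nM, 3 libraries) were used for comparison and share no library with the 6.

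Trivalent arsenic binds thiol groups of proteins, among them those of KEAP1, which otherwise marks the transcription factor NRF2 for degradation. Freed NRF2 binds antioxidant response elements and drives genes for glutathione synthesis, quinone and aldo-keto reduction and haem breakdown. Arsenic also displaces zinc and so can act on metallothionein genes through the metal sensor MTF1. A microRNA such as miR-186 pairs with messages and lowers their translation or stability, and arsenic given for months at low dose is used as a model of keratinocyte transformation.

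Levels are FPKM, fragments per length of transcript and per fragments sequenced, which allow genes to be compared per length. Changes are differences of log2(FPKM + 0.5), 100 nM minus 0 nM, ± standard error, a scale that understates the change of genes with low levels. In bulk RNA, fewer cells with a message and less of it per cell cannot be told apart. The 6 libraries summed to 758725 to 905683 FPKM, and 13867 to 14203 genes reached 0.5 FPKM. Replicate 2 at 0 nM stood apart within its dose. It correlated at 0.947 to 0.966 with the other 5 libraries, across genes that are not independent replicates. Replicates 1 and 3 at 0 nM correlated at 0.988 with each other. Replicate 1 at 100 nM correlated at 0.985 and 0.988 with replicates 1 and 3 at 0 nM, and at 0.960 and 0.967 with the other 100 nM libraries. Replicates 2 and 3 at 100 nM correlated at 0.964 with each other, so the 100 nM libraries were no closer to one another. All 9 keratinocyte markers stood above 1 FPKM in every one of the 6 libraries, with sums of 1289 to 2776 FPKM. The summed fibroblast markers stood at 3.94, 95.6 and 6.84 FPKM at 0 nM and at 2.36, 3.80 and 1.75 FPKM at 100 nM. Decorin (DCN), a matrix proteoglycan, made up 78.0 FPKM of the sum in replicate 2 at 0 nM and 0.424 to 1.5 FPKM in the other 5. Only 2 of the 7 fibroblast markers, DCN and LUM, stood above 1 FPKM in any of the 6 libraries. Leukocyte markers summed to 0.319 to 1.07 FPKM. SOX10 and S100B of nerve or Schwann cells, TYR of melanocytes and TEK of endothelium were listed at 0 in all 6. In contrast, CDH5, an endothelial cadherin, stood at 3.67 to 18.4 FPKM. The 6 melanocyte markers together summed to 6.22 to 11.3 FPKM, and 1 of them stood above 1 FPKM in all 6 libraries. The gene of the transduced microRNA, MIR186, was listed at 0 in every library, so the labels could not be checked through it. Its host gene ZRANB2, which encodes a splicing-associated zinc finger protein, stood at 32.9, 65.3 and 37.7 FPKM at 0 nM and at 37.2, 38.4 and 30.4 FPKM at 100 nM (-0.30 ± 0.22, unadjusted p = 0.186, limma).

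Chronic iAs left no single gene that could be called in these clones at week 29. Of 14228 genes tested, 0 passed limma's test at a Benjamini-Hochberg adjusted p of 0.05 (0% called), and the smallest adjusted p was 0.999, for ADAMTS6. At an unadjusted p under 0.05 there were 312 genes (2.19% of those tested), 141 of them higher (0.991%) and 171 lower (1.20%) with iAs. This number was 1037 without replicate 1 and 195 without replicate 3 at 100 nM, and 524 without replicate 1 and 204 without replicate 2 at 0 nM, with 0 adjusted calls each time. The 3 libraries at 100 nM lay wholly above the 3 at 0 nM for 315 genes (2.21%) and wholly below for 484 (3.40%), together 5.62% of the genes tested. For 1 gene alone, 3 libraries against 3 cannot give an exact two-sided permutation p under 0.10. Libraries that do not differ by dose would thus separate with a probability of 0.10 per gene, and would reach an unadjusted p under 0.05 with one of 0.05. The 5.62% and 2.19% found here do not exceed these rates, so the separated genes are not shown to be a response. The median absolute change was 0.15 over all genes, and 28 of the 315 and 16 of the 484 genes exceeded 2-fold. The genes named below are therefore given as values, without a call.

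**Figure D1:**
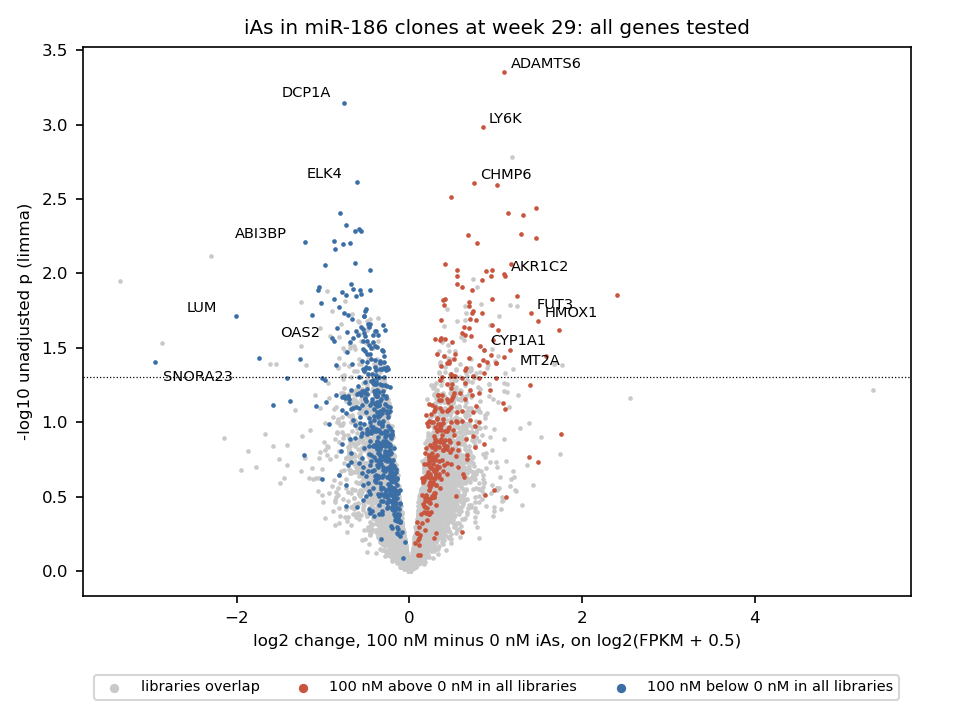
Log2 change of each of the 14228 genes (horizontal axis, 100 nM minus 0 nM iAs on log2(FPKM + 0.5)) against the negative log10 of the unadjusted limma p (vertical axis, dotted line at 0.05). Red genes lie higher in all 3 libraries at 100 nM than in any at 0 nM (315 genes), blue genes lower (484), and grey genes overlap. ADAMTS6 and DCP1A are the highest points on each side, and no gene passes adjustment.

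Among genes higher with iAs, the smallest p belonged to ADAMTS6 (ENSG00000049192, GRCh38 chromosome 5, 65148736 to 65481920, minus strand), a secreted metalloprotease of the ADAMTS family. It stood at 2.43, 1.56 and 2.5 FPKM at 0 nM and at 5.43, 4.32 and 5.70 FPKM at 100 nM, means of 2.16 ± 0.527 and 5.15 ± 0.731 FPKM (SD, n = 3 in each group). The lowest 100 nM library lay above the highest 0 nM library, as the choice of genes required. The change was 1.10 ± 0.26, or 2.14-fold (unadjusted p = 0.000443, limma). LY6K, a surface protein first described as a cancer-testis antigen, stood at 3.83, 3.40 and 2.82 FPKM at 0 nM and at 5.21, 6.72 and 7.42 FPKM at 100 nM (0.85 ± 0.22). CHMP6, a subunit of the ESCRT-III membrane scission machinery, stood at 7.75, 4.88 and 5.67 FPKM at 0 nM and at 8.55, 11.1 and 11.7 FPKM at 100 nM (0.74 ± 0.22, and 0.47 with a correction for GC content). In both genes the groups did not overlap, by the same choice, and replicate 1 was the lowest of the 100 nM libraries. The assembly factor of ATP synthase ATPAF2 stood at 10.5, 11.2 and 10.2 FPKM at 0 nM and at 13.3, 14.7 and 17.4 FPKM at 100 nM (0.48 ± 0.14). SLC25A37, the mitoferrin that carries iron into mitochondria, stood at 6.71 to 7.98 FPKM at 0 nM and at 9.42 to 9.79 FPKM at 100 nM (0.42 ± 0.14). PDF, the mitochondrial peptide deformylase, stood at 0.359 to 0.906 FPKM at 0 nM and at 1.58 to 3.53 FPKM at 100 nM (1.29 ± 0.42).

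BIK, a BH3-only protein that promotes apoptosis, stood at 13.5, 8.76 and 14 FPKM at 0 nM and at 16.4, 22 and 20.02 FPKM at 100 nM (0.68 ± 0.22, unadjusted p = 0.00551, limma). CYP1A1, the monooxygenase that is the classical target of the aryl hydrocarbon receptor, had tight replicates: 1.43, 1.67 and 1.49 FPKM at 0 nM and 3.32, 3.00 and 3.21 FPKM at 100 nM (0.86 ± 0.37, unadjusted p = 0.0325, limma). It was the only gene of 9 tested targets of the receptor whose libraries did not overlap. Of all genes, 2.21% were higher and 3.40% lower without overlap. The median change of those 9 targets was 0.02, against -0.01 over all genes. At low levels, the libraries also did not overlap for CCL26 (the chemokine eotaxin-3, 0.194 to 0.304 FPKM at 0 nM and 0.809 to 1.92 FPKM at 100 nM, 1.14 ± 0.35) and CSF2 (the growth factor GM-CSF, 0 to 0.243 FPKM and 0.525 to 0.933 FPKM, 0.89 ± 0.31). CCL26, like PDF above, reached the level needed for naming only through its 100 nM libraries. FUT3, a fucosyltransferase of Lewis blood group antigens, stood at 1.54, 0.310 and 1.17 FPKM at 0 nM and at 2.57, 4.30 and 2.98 FPKM at 100 nM (1.41 ± 0.55). Its near copies in the same gene cluster make its level uncertain. DCPS, the scavenger enzyme that clears cap fragments after messages are degraded, stood at 7.53 to 9.34 FPKM at 0 nM and at 10.8, 11.2 and 17.2 FPKM at 100 nM (0.55 ± 0.19).

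**Figure D2:**
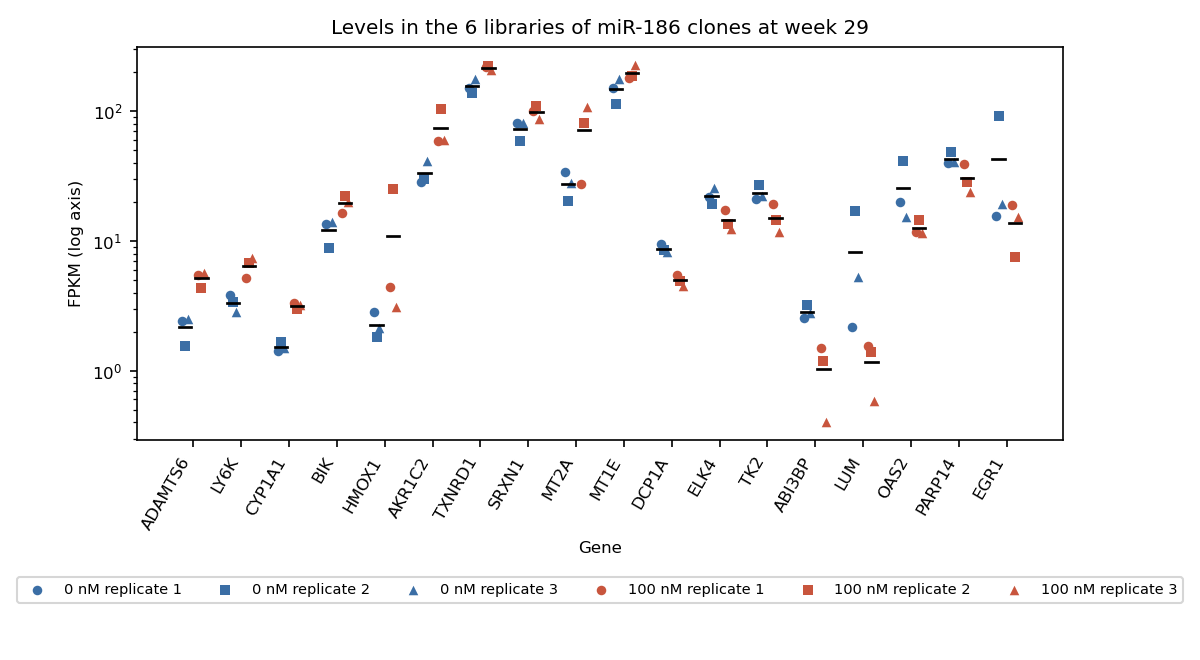
FPKM of 18 genes (log axis) in each of the 6 libraries, with 0 nM in blue and 100 nM in red, symbols for replicates 1, 2 and 3, and a black bar at each group's mean. ADAMTS6, CYP1A1 and DCP1A show separated groups with close replicates, whereas HMOX1 (24.9 FPKM in replicate 2 at 100 nM), LUM and EGR1 (17.2 and 92.6 FPKM in replicate 2 at 0 nM) have means set by 1 library.

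On the lower side, the smallest p belonged to DCP1A (ENSG00000272886, GRCh38 chromosome 3, 53283428 to 53347610, minus strand), the activator of the decapping enzyme that removes the cap from messages. It stood at 9.49, 8.56 and 8.14 FPKM at 0 nM and at 5.47, 4.92 and 4.49 FPKM at 100 nM, means of 8.73 ± 0.688 and 4.96 ± 0.494 FPKM (SD, n = 3 in each group). Every 100 nM library lay below every 0 nM library, as the choice of genes required. The change was -0.76 ± 0.19, 1.69-fold lower (unadjusted p = 0.00072, limma). DCP1A belongs to a list of 32 tested genes of message decay and decapping, of which 24 lay below 0 (51.6% of all genes did), with a median of -0.08 against -0.01 over all genes. Without replicate 2 at 100 nM the list's median was -0.01. Of these 32, 3 genes were lower without overlap (3.40% of all genes) and 0 were higher (2.21%). The other two were the RNA helicase DDX6 (45.4, 45.5 and 47.0 FPKM at 0 nM and 45.0, 32.3 and 39.8 FPKM at 100 nM, -0.25 ± 0.14) and the nonsense-mediated decay nuclease SMG6 (12.5 to 13.4 FPKM and 12.0 to 12.1 FPKM, -0.11 ± 0.15, and -0.23 with a correction for GC content), the latter named after its values were seen. The decapping enzyme itself, DCP2, stood at 21.9, 22.7 and 21.4 FPKM at 0 nM and at 22.2, 15.4 and 15.4 FPKM at 100 nM, so its replicate 1 overlapped.

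ELK4, a serum response cofactor of the ETS family, stood at 21.8, 19.3 and 25.4 FPKM at 0 nM and at 17.3, 13.5 and 12.4 FPKM at 100 nM (-0.61 ± 0.18, unadjusted p = 0.00244, limma). EDARADD, the adaptor of the ectodysplasin receptor that acts in hair and gland development, stood at 14.8, 21.7 and 15.5 FPKM at 0 nM and at 12.5, 12.3 and 9.51 FPKM at 100 nM (-0.56 ± 0.18). Mitochondrial thymidine kinase, TK2, stood at 20.9, 27.0 and 22.4 FPKM at 0 nM and at 19.3, 14.5 and 11.7 FPKM at 100 nM (-0.63 ± 0.20). In these genes too, replicate 1 was the highest of the 100 nM libraries and lay nearest to the 0 nM group. Among genes of adhesion and matrix, ABI3BP stood at 2.54, 3.22 and 2.80 FPKM at 0 nM and at 1.49, 1.2 and 0.399 FPKM at 100 nM (-1.21 ± 0.39). FAT2, a giant atypical cadherin of keratinocytes, stood at 19.7 to 21.5 FPKM at 0 nM and at 11.6 to 14.9 FPKM at 100 nM (-0.57 ± 0.21). Complement component C5 stood at 4.95 to 5.35 FPKM at 0 nM and at 2.50 to 3.64 FPKM at 100 nM (-0.65 ± 0.24). The change of lumican (LUM), a keratan sulfate proteoglycan, was -2.0 ± 0.79, from 2.18, 17.2 and 5.23 FPKM at 0 nM to 1.56, 1.39 and 0.581 FPKM at 100 nM. LUM is one of the 7 fibroblast markers whose sum was high in replicate 2 at 0 nM. Of these 7, only 2, LUM and DCN, stood above 1 FPKM in any library. Whether fibroblasts had a part in the change of LUM was not tested.

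As a group, NRF2 antioxidant genes stood higher with iAs than genes in general. All 32 listed genes were tested, 27 of them lay above 0 (84.4%, against 48.3% of all genes), and their median change was 0.25, against -0.01 over all genes. With a correction for GC content these medians were 0.18 and -0.03. At an unadjusted p under 0.05 in limma there were 4 higher (0.991% of all genes) and 0 lower (1.20%), and 5 genes were higher without overlap (2.21% of all genes) and 0 lower (3.40%). No member passed adjustment. The group stood unevenly across libraries: relative to the mean of the 0 nM libraries, the median over the 32 genes was -0.04, -0.09 and 0.04 at 0 nM and 0.11, 0.47 and 0.28 at 100 nM. All 3 values at 100 nM thus lay above all 3 at 0 nM, with replicate 1 nearest. The list's median change was 0.15 without replicate 2 at 100 nM and 0.21 to 0.30 when any other of the 6 libraries was left out.

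HMOX1, haem oxygenase 1 and the textbook arsenic-inducible gene (ENSG00000100292, chromosome 22, 35380361 to 35394214, plus strand), stood at 2.84, 1.80 and 2.14 FPKM at 0 nM and at 4.43, 24.9 and 3.12 FPKM at 100 nM. The groups did not overlap, but replicate 2 at 100 nM stood several times above the rest. The change was 1.49 ± 0.60 (unadjusted p = 0.0208, limma), and 0.63 without that library. AKR1C2, an aldo-keto reductase of steroids and lipid aldehydes, stood at 28.5, 29.9 and 41.5 FPKM at 0 nM and at 58.5, 104 and 59.6 FPKM at 100 nM (1.11 ± 0.39). AKR1C1 stood at 2.79, 1.41 and 2.40 FPKM at 0 nM and at 2.51, 9.60 and 7.55 FPKM at 100 nM (1.25 ± 0.48). AKR1C1, AKR1C2 and AKR1C3 are near-identical neighbours on chromosome 10, so the reads could have been split among them and their single levels are uncertain. The thioredoxin reductase TXNRD1 stood at 152, 137 and 178 FPKM at 0 nM and at 219, 222 and 209 FPKM at 100 nM (0.48 ± 0.24). All 3 libraries at 100 nM lay within a narrow band above the 0 nM group. Sulfiredoxin, SRXN1, which reactivates oxidised peroxiredoxins, stood at 80.6, 59.3 and 80.6 FPKM at 0 nM and at 101, 110 and 86.9 FPKM at 100 nM (0.44 ± 0.20). TRIM16L, the fifth gene without overlap and named after its values were seen, stood at 124 to 162 FPKM at 0 nM and at 178 to 223 FPKM at 100 nM, and has a near copy in TRIM16.

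Other genes of the same pathway overlapped between the doses. NQO1, the quinone reductase most often used to read NRF2 activity, stood at 158, 287 and 194 FPKM at 0 nM and at 199, 235 and 239 FPKM at 100 nM (0.11 ± 0.28). The catalytic subunit of glutathione synthesis GCLC, named after its values were seen, stood at 122, 90.8 and 139 FPKM at 0 nM and at 180, 137 and 185 FPKM at 100 nM (0.53 ± 0.31), and its partner GCLM at 75.6, 54.2 and 88.2 FPKM and at 98.4, 83.3 and 64.7 FPKM (0.18 ± 0.24). Ferritin light chain, FTL, which stores the iron set free by haem breakdown, stood at 499, 395 and 422 FPKM at 0 nM and at 410, 1152 and 618 FPKM at 100 nM (0.60 ± 0.35). As with HMOX1 and AKR1C2, the highest FTL value was in replicate 2 at 100 nM, and replicate 1 at 100 nM lay inside the 0 nM range.

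The antioxidant response element TGACNNNGC, searched on both strands in windows from 250 bases before to 50 after the gene start (RefSeq, GRCh38.p14), was found in 7 of the 21 NRF2 genes with a window (33.3%) and in 13.3% of all 35116 windows. The shares are of unlike units: a listed gene counts if any of its windows matches, whereas the other share is over single windows. A gene with several windows thus has more chances. A match is a description of letters and no evidence of binding. TXNRD1, whose doses separated, and GCLM, whose doses overlapped, are shown with the element in capitals, read along the gene's strand, to let a reader see that both kinds hold one:
TXNRD1: acacgggctaTGACTTCGCtgttgtcaccg
GCLM: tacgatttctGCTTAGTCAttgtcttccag
The first lies at chr12:104215670-104215699 on the plus strand, and the second at chr1:93909445-93909474 on the minus strand, with its element on the opposite strand.

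**Figure D3:**
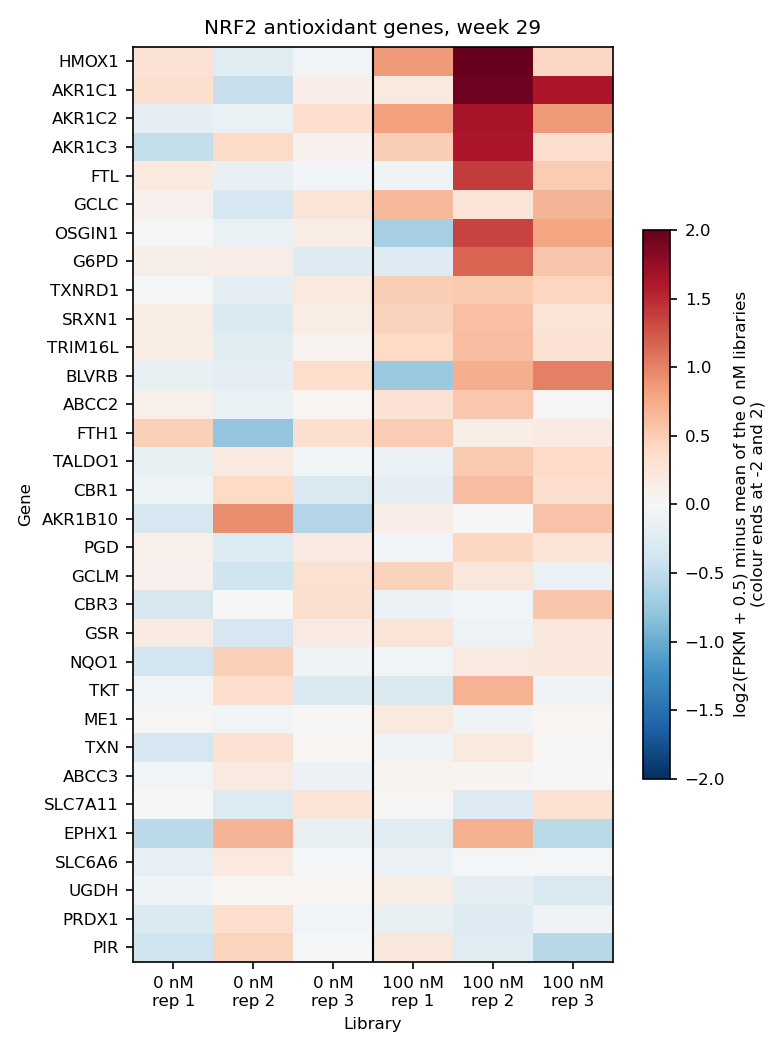
Each row is 1 of the 32 NRF2 genes and each column 1 library. Colour gives log2(FPKM + 0.5) minus the mean of the 3 libraries at 0 nM, red higher and blue lower, with colours ending at -2 and 2. Rows are ordered by the mean of the 100 nM libraries. The strongest reds, HMOX1 and the AKR1C genes, sit in replicate 2 at 100 nM, and most rows in the lower part are near 0.

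Metallothioneins, small cysteine-rich proteins that bind zinc and other metals, were measured for 4 of 11 listed genes; the other 7 were below the filter on low values, so the 4 do not stand for the family. All 4 lay above 0, with a median of 0.38. It ran from 0.31 (without replicate 2 at 0 nM) to 0.64 (without replicate 1 at 100 nM), and was 0.27 with a correction for GC content. MT2A stood at 34.0, 20.2 and 27.8 FPKM at 0 nM and at 27.6, 80.6 and 108 FPKM at 100 nM (1.2 ± 0.56, unadjusted p = 0.0442, limma). Replicates 2 and 3 at 100 nM lay above the whole 0 nM group, and replicate 1 lay within it. MT1E stood at 150, 114 and 179 FPKM at 0 nM and at 179, 188 and 227 FPKM at 100 nM (0.44 ± 0.24), with the lowest 100 nM value only just above the highest 0 nM value. MT1X stood at 47.8, 49.5 and 35.7 FPKM at 0 nM and at 26.5, 74.5 and 76.1 FPKM at 100 nM (0.28 ± 0.46), again with replicate 1 low. The MT1 genes are near copies in 1 cluster and their single levels are uncertain. MTF1, the zinc-sensing factor that binds their promoters, stood at 7.85, 8.12 and 8.51 FPKM at 0 nM and slightly lower, at 7.57, 7.16 and 6.57 FPKM, at 100 nM (-0.19 ± 0.16). Of 14 tested genes of arsenic uptake, methylation and export, 8 lay above 0 and 6 below, 0 were without overlap, and the median was 0.10 (0.00 with a correction for GC content). The arsenic methyltransferase AS3MT was near absent at 0.0204 to 0.105 FPKM and was not tested. MAT2A, which makes the methyl donor S-adenosylmethionine, stood at 136, 206 and 124 FPKM at 0 nM and at 129, 118 and 93.2 FPKM at 100 nM (-0.43 ± 0.18, unadjusted p = 0.0299, limma), and replicate 1 at 100 nM lay inside the 0 nM range. Glutathione transferase GSTP1 stood at 304, 268 and 266 FPKM at 0 nM and at 217, 459 and 588 FPKM at 100 nM (0.48 ± 0.32, and 0.24 with a correction for GC content).

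Interferon-stimulated genes stood lower with iAs. Of 45 tested, 37 lay below 0 (82.2%, against 51.6% of all genes), the median was -0.37, and at an unadjusted p under 0.05 in limma there were 4 lower (1.20% of all genes) and 0 higher (0.991%). Relative to the 0 nM mean, the list's median was -0.13, 0.27 and -0.08 at 0 nM and -0.20, -0.11 and -0.69 at 100 nM, so replicate 2 at 0 nM and replicate 3 at 100 nM stood farthest out, and the doses overlapped. The median change was -0.15 without replicate 3 at 100 nM and -0.26 without replicate 2 at 0 nM. OAS2, an enzyme that activates RNase L on double-stranded RNA, stood at 19.9, 41.5 and 15.4 FPKM at 0 nM and at 11.8, 14.5 and 11.6 FPKM at 100 nM (-0.87 ± 0.37, unadjusted p = 0.0283, limma). MX1, a GTPase against viral nucleocapsids, stood at 4.35, 12.8 and 8.56 FPKM at 0 nM and at 4.19, 6.46 and 2.13 FPKM at 100 nM (-0.92 ± 0.38). PARP14, an ADP-ribosyltransferase, stood at 39.7, 48.3 and 40.4 FPKM at 0 nM and at 39.1, 28.2 and 23.9 FPKM at 100 nM (-0.51 ± 0.24). OAS2 and PARP14 did not overlap between doses, whereas MX1 did. The RNA sensor IFIH1 (19.5 to 19.8 FPKM at 0 nM; 19.3, 15.4 and 12.2 FPKM at 100 nM) and PARP9 (40.2 to 50.4 FPKM; 28 to 34.7 FPKM) were the other two without overlap, named after their values were seen. This makes 4 of 45 lower without overlap, against 3.40% of all genes.

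The interferon-stimulated response element, here GAAA repeated after any 2 bases and searched on both strands in the same windows, was found in 24 of the 34 interferon genes with a window (70.6%) and in 3.57% of all windows. Again the first share counts genes with any matching window and the second counts single windows. The share among listed genes describes how the list was made up and not the change with iAs. To show the element, 3 genes are given, with it in capitals along the gene's strand:
PARP14: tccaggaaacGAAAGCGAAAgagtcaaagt
IFIH1: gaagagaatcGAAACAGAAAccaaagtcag
MX1: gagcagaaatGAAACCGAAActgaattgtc
They lie at chr3:122680800-122680829 (plus strand), chr2:162318686-162318715 (minus strand) and chr21:41420559-41420588 (plus strand). PARP14 and IFIH1 separated between doses and MX1 overlapped, and all hold the element.

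Early response genes, the fast targets of AP-1 and serum response factors, had a median of -0.34 over 24 genes, with 18 below 0. The list's median by library was -0.29, 0.63 and -0.33 at 0 nM and -0.27, -0.31 and -0.42 at 100 nM. Only replicate 2 at 0 nM stood out, and without it the median change was -0.02. EGR1, an immediate early zinc finger factor, stood at 15.6, 92.6 and 19.2 FPKM at 0 nM and at 18.9, 7.49 and 15.2 FPKM at 100 nM (-1.2 ± 0.55). Of the 24 genes, 2 were lower without overlap (3.40% of all genes) and 0 higher (2.21%). KLF6, a Krüppel-like factor, separated with a smaller change, from 50.1, 67.8 and 51.8 FPKM at 0 nM to 45.9, 42.6 and 42.1 FPKM at 100 nM (-0.36 ± 0.15, unadjusted p = 0.026, limma). The other was KLF2, at low levels of 0.342 to 0.445 FPKM at 0 nM and 0.186 to 0.227 FPKM at 100 nM (-0.34 ± 0.19). In the other direction, the AP-1 subunit FOSL1 stood at 24.5, 16.7 and 25.9 FPKM at 0 nM and at 25.4, 33.5 and 43.7 FPKM at 100 nM (0.59 ± 0.25). Cytokines and NF-kB targets had a median of 0.20 over 25 tested genes, with 16 above 0 (64.0%, against 48.3% of all genes), 3 higher without overlap (2.21% of all genes) and 0 lower (3.40%). That median was 0.04 without replicate 2 at 0 nM, and also 0.04 without replicate 3 at 100 nM. Besides CSF2, the separated genes were the interleukin 1 antagonist IL1RN (29.1 to 40.5 FPKM at 0 nM; 42.4 to 57.9 FPKM at 100 nM) and the cytokine LIF (2.43 to 4.01 FPKM; 4.53 to 5.39 FPKM).

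Genes of the cell cycle differed more between the 100 nM libraries than between doses. Of 55 tested genes of mitosis and the spindle checkpoint, 50 lay below 0, with a median of -0.22, but 0 were without overlap and 0 reached an unadjusted p under 0.05 in limma. The list's median by library was -0.30, 0.25 and 0.05 at 0 nM and 0.06, -1.25 and 0.61 at 100 nM. Replicate 2 at 100 nM was thus the lowest of the 6 libraries and replicate 3 the highest. Without replicate 2 at 100 nM the list's median change was 0.30, and without replicate 2 at 0 nM it was -0.08. TOP2A, the topoisomerase of dividing cells, stood at 59.6, 147 and 106 FPKM at 0 nM and at 107, 29.4 and 88.3 FPKM at 100 nM. CENPF, a kinetochore protein, stood at 20.3, 44.7 and 31.8 FPKM at 0 nM and at 36.0, 8.43 and 25.9 FPKM at 100 nM. Genes of DNA replication and entry into S phase were 30 above 0 of 40, with a median of 0.14 and 0 without overlap, and by library -0.14, -0.40 and 0.87 at 100 nM against 0.00, 0.00 and 0.01 at 0 nM. MCM5, a subunit of the replicative helicase, stood at 9.05, 5.37 and 9.36 FPKM at 0 nM and at 6.39, 8.22 and 30.7 FPKM at 100 nM (0.59 ± 0.48, and -0.08 without replicate 3 at 100 nM). Without replicate 3 at 100 nM the replication list's median was -0.22. Replicate 2 at 100 nM, which held the highest HMOX1, held the lowest mitotic genes.

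**Figure D4:**
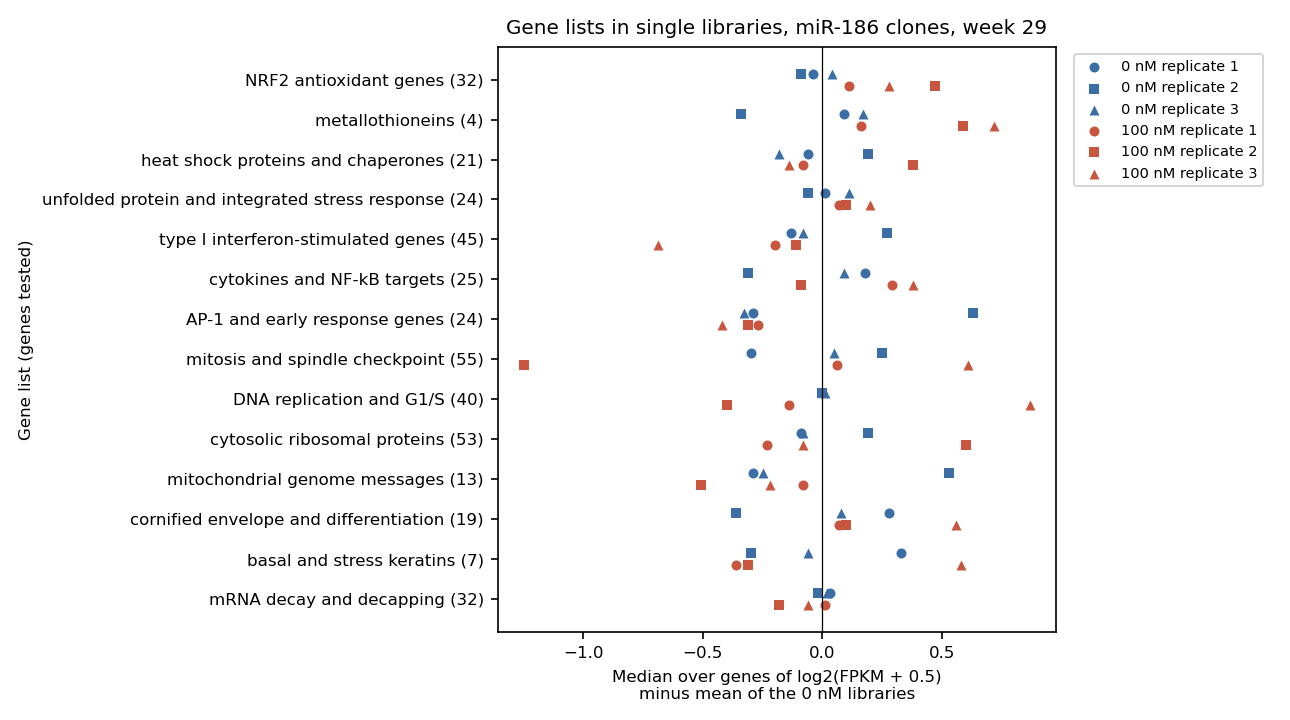
Median over the tested genes of each list (number in brackets) of log2(FPKM + 0.5) minus the mean of the 0 nM libraries, for each of the 6 libraries (blue 0 nM, red 100 nM, symbols for replicates). NRF2 genes are the only list drawn whose 100 nM libraries (0.11 to 0.47) all lie above the 0 nM libraries (-0.09 to 0.04), and mitotic genes span -1.25 to 0.61 at 100 nM.

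Changes with iAs in these clones were weakly correlated with those in the other 2 comparisons. Across the 14228 genes the change correlated with that of vector clones at week 29 at r = 0.236 (rho = 0.249, same sign in 58.7%) and with that of miR-186 clones at week 12 at r = 0.227 (rho = 0.282, same sign in 60.9%). These are descriptions across genes, which are not independent, and the points share 1 FPKM table and its dependence on GC content. The slope of log2 level on gene GC content, per 10 percentage points, was -0.190, -0.277 and -0.317 at 0 nM and -0.369, 0.047 and -0.083 at 100 nM. The median GC content was 52.6% for the 315 genes higher without overlap, 43.2% for the 484 lower and 47.9% for all genes tested, and the part of GC content in these lists was not tested. Of the 315 genes, 207 (65.7%) had the same sign in vector clones at week 29 and 226 (71.7%) in miR-186 clones at week 12. Of the 484, 323 (66.7%) had the same sign in each. Over all 14228 genes, 7689 lay above 0 and 6523 below in vector clones at week 29. In miR-186 clones at week 12, 7553 lay above and 6656 below. Genes without overlap made up 5.56% higher and 4.34% lower of all tested in vector clones at week 29, and 8.82% and 8.16% in miR-186 clones at week 12. In all 3 comparisons, 8 of the 315 (2.54%) and 7 of the 484 (1.45%) lay without overlap in the same direction. How many would do so without a response was not tested. These genes include ALAS1, the first enzyme of haem synthesis, and F2RL1, a protease-activated receptor of keratinocytes, both named after their values were seen. The change of ALAS1 was 0.19 ± 0.13 in miR-186 clones at week 29 (17.6 to 18.6 FPKM at 0 nM, 20.2 to 22 FPKM at 100 nM), 0.17 ± 0.13 in vector clones at week 29 and 0.30 ± 0.13 in miR-186 clones at week 12. That of F2RL1 was -0.30 ± 0.27 (45.1 to 46.9 FPKM and 30.1 to 42.9 FPKM), -0.58 ± 0.27 and -0.81 ± 0.27 in the same order.

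At an unadjusted p under 0.05 there were 312 of the 14228 genes here, 555 (3.90%) in vector clones at week 29 (1078 with the replicate number as a block) and 1558 (11.0%) in miR-186 clones at week 12, with 0 adjusted calls in each (smallest adjusted p 1 and 0.123, limma). With 1 library left out, these counts ran from 195 to 1037 here, from 295 (without replicate 3 at 0 nM) to 1410 (without replicate 3 at 100 nM) in vector clones, and from 661 (without replicate 2 at 100 nM) to 2107 at week 12, so their order is not fixed. The difference of the iAs effects itself, miR-186 minus vector clones at week 29, had 0 genes at an adjusted p of 0.05 and 272 (1.91%) at an unadjusted p under 0.05. Week 29 minus week 12 in miR-186 clones had 0 and 439 (3.09%). With 1 library left out these ran from 167 to 548 and from 251 to 856. The smallest p between constructs was that of DCP1A: its change was -0.76 ± 0.19 in miR-186 clones and 0.31 ± 0.19 in vector clones at week 29, a difference of -1.07 ± 0.27 (unadjusted p = 0.000727, adjusted p = 1, limma). The smallest p between weeks was that of ADAMTS6, with 1.10 ± 0.26 at week 29 and -0.69 ± 0.26 at week 12, a difference of 1.78 ± 0.37 (unadjusted p = 0.000103, adjusted p = 1, limma). HMOX1 changes were 1.49 ± 0.60 here, 0.24 ± 0.60 in vector clones and 1.03 ± 0.60 at week 12, with differences of 1.25 ± 0.84 and 0.47 ± 0.84 (unadjusted p = 0.152 and 0.584, limma).

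Gene lists differed in how they stood across the 3 comparisons. The median of the NRF2 genes was 0.25 here, 0.23 in vector clones at week 29 and 0.29 in miR-186 clones at week 12. Interferon genes had medians of -0.37, -0.45 and -0.06 in the same order, and metallothioneins 0.38, 0.44 and 0.11. Mitotic genes had medians of -0.22, 0.45 and -0.64, and early response genes -0.34, 0.27 and -0.37. The mitotic sign here rests on 1 library: the median was 0.30 without replicate 2 at 100 nM. The early response median stayed below 0 with each library left out, but was -0.02 without replicate 2 at 0 nM. The count of genes in which the difference itself reached an unadjusted p under 0.05 was 0 of 32 NRF2 genes, 0 of 45 interferon genes, 1 of 55 mitotic genes and 4 of 24 early response genes between constructs (1.91% over all genes), and 1, 2, 0 and 3 between weeks (3.09%).

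**Figure D5:**
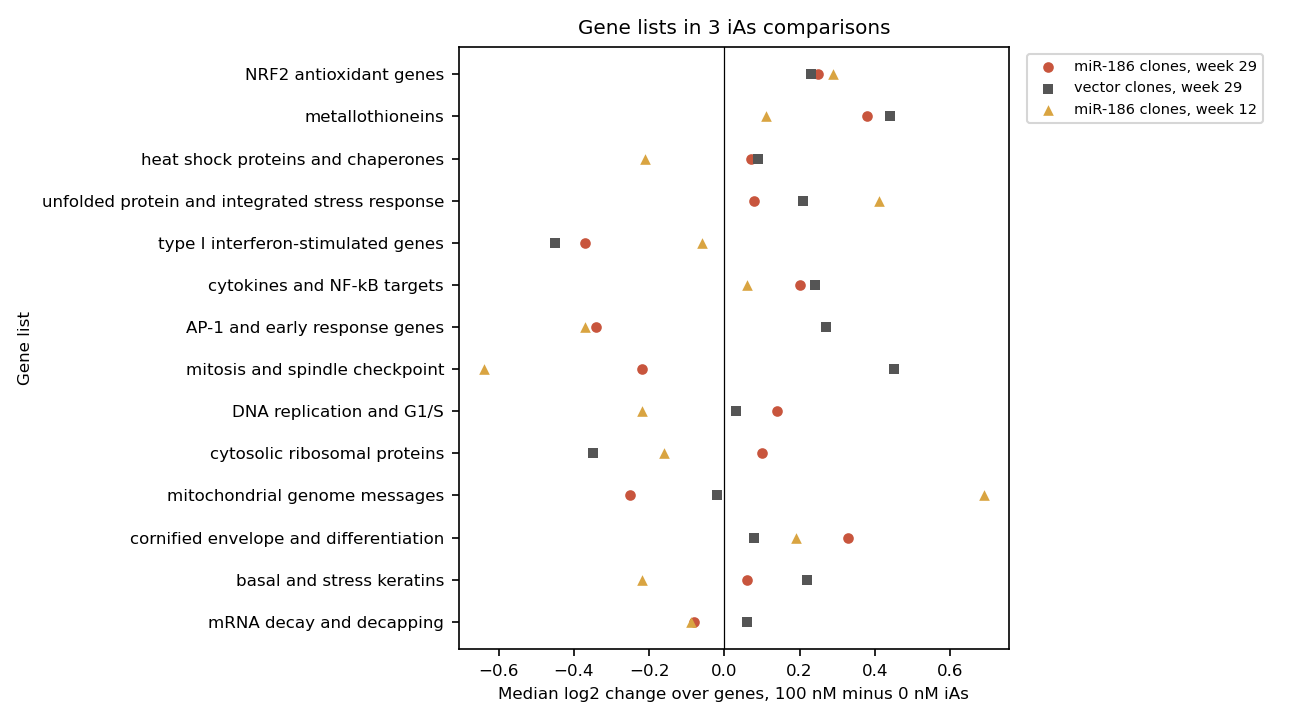
Median log2 change over the tested genes of each list, 100 nM minus 0 nM iAs, in miR-186 clones at week 29 (red circles), vector clones at week 29 (grey squares) and miR-186 clones at week 12 (yellow triangles). NRF2 genes lie at 0.23 to 0.29 in all 3, while mitotic genes range from -0.64 to 0.45.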

How the data were processed

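RNA of HaCaT clones was sequenced as stranded poly(A) libraries, pooled and run together, per the labels' protocols. Per the submitters' processing notes, the authors mapped reads to GRCh38 (hg38) using STAR 2.6.0c, and Cuffdiff 2.2.1 gave the deposited FPKM. The annotation, strand setting and scaling between libraries are not given in the sources used here. Antisense genes were therefore not named. Absolute depth is unknown, so no counting interval was given.

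The deposited FPKM of 14228 of 58381 genes, those with a mean of at least 0.5 over 24 libraries, were analysed as log2(FPKM + 0.5). limma 3.58.1 (R 4.3.3) with trend and robust moderation was fitted to all 8 groups, with Benjamini-Hochberg adjustment over all genes and a threshold of 0.05. The fit was tested on simulated data. GENCODE 29 gave coordinates and GC content (99.9% of genes tested), and RefSeq (GRCh38.p14) promoter windows. No pair of libraries was identical. The main fit took replicate numbers as pairing in no comparison. In vector clones at week 29, deviations of libraries with the same number were correlated (0.49, 0.46 and 0.62), which the labels do not explain. A block for the number within each construct and week was run only as an alternative.

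The comparison and the 38 gene lists were chosen with earlier results of these data known. Named genes had no overlap between doses and averaged 1 FPKM or more in the higher group: the 15 smallest p and 5 largest changes each way. Up to 6 genes of smallest p per list, 5 per difference of effects and 10 fixed genes were added. Not every such gene is printed. Alternatives were pseudocounts of 0.1 and 1, a mean of at least 2 FPKM, no filter, a fit on the compared groups, median ratio scaling, sample quality weights, GC correction (spline of 5 degrees of freedom), a replicate block, and each library left out.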

Additional observations from a re-analysis of the deposited data

How the results depend on the processing

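The count of 0 genes at an adjusted p of 0.05 (limma) in miR-186 clones at week 29 held in every alternative run except no filter on low values, which gave 3 calls among 31357 genes. These were RPS6P25 and AC093904.2 (higher) and AC010974.1 (lower), all under 0.4 FPKM in each library and named after their values were seen. Without the filter there were also 19 calls in miR-186 clones at week 12, 3 for the difference between constructs and 4 for the difference between weeks. Sample quality weights gave 2082 calls (1097 higher, 985 lower) in vector clones at week 29, where 1 library received a weight of 17.5 and the estimate stopped before it converged, and 1 call in miR-186 clones at week 12. GC correction gave 1 call there. With each library left out in turn, calls ran from 0 to 1 in miR-186 clones at week 12 and from 0 to 1 for the difference between weeks.

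The number of genes at an unadjusted p under 0.05 at week 29, 312, was 641 with sample quality weights, 201 with a mean of at least 2 FPKM and 1192 without a filter. Deviations of libraries with the same replicate number correlated at -0.11, 0.28 and 0.13, so the number was not taken as pairing, and with the replicate block there were 0 adjusted calls and 747 genes unadjusted (0 and 795 with GC correction as well). The block left 0 adjusted calls in the other 4 comparisons.

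Of 65 printed genes refitted, the sign of 4 turned. Sample quality weights gave -0.55 for CDH5 and -0.05 for GCLM. With each library left out, CDH5 ran from -0.62 to 0.47, GCLM from -0.01 to 0.34, MCM5 from -0.08 to 1.01 and NQO1 from -0.08 to 0.35. The causes were not tested. With 3 libraries a group and no read counts, small changes were not detectable.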

Other observations

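In several lists not described above, 1 library stood apart. Messages of the mitochondrial genome lay below 0 for 12 of 13 genes, with a median of -0.25, and by library the median was -0.29, 0.53 and -0.25 at 0 nM and -0.08, -0.51 and -0.22 at 100 nM. MT-ND5, a subunit of complex I, stood at 965, 2390 and 1431 FPKM at 0 nM and at 987, 875 and 1004 FPKM at 100 nM (-0.64 ± 0.30, unadjusted p = 0.0451, limma), with replicate 2 at 0 nM far above the rest. Without that library the list's median was 0.00. Cytosolic ribosomal proteins had a median of 0.10 over 53 genes, of which 35 lay above 0 and 0 separated, and a median of -0.16 without replicate 2 at 100 nM. That library stood at 0.60 and the other 5 libraries at -0.23 to 0.19. RPLP1, a protein of the ribosomal stalk, stood at 169, 257 and 135 FPKM at 0 nM and at 96.4, 634 and 378 FPKM at 100 nM.

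Genes of the cornified envelope, the cross-linked protein shell of terminally differentiated keratinocytes, had a median of 0.33 over 19 tested genes of 34 listed, with 15 above 0 and 0 without overlap. Replicate 2 at 0 nM was the lowest library (-0.36) and replicate 3 at 100 nM the highest (0.56), and the list's median change was 0.14 without the former and 0.09 without the latter. SPRR1B, an envelope precursor, stood at 1.70, 0.825 and 1.41 FPKM at 0 nM and at 2.2, 0.990 and 10.6 FPKM at 100 nM. Of 18 YAP and TEAD genes, 9 lay above 0 and 9 below, and 2 were lower without overlap (3.40% of all genes). These were WWTR1, the coactivator TAZ (27.6, 27.3 and 25.8 FPKM at 0 nM and 21.7, 21.8 and 21.2 FPKM at 100 nM, -0.31 ± 0.16), and the kinase NUAK2 (1.90, 2.97 and 2.07 FPKM and 1.26, 1.45 and 1.58 FPKM, -0.53 ± 0.21). The 3 WWTR1 values at 100 nM lay close together below all 0 nM values, and the change was 0.15 ± 0.16 in vector clones at week 29 and 0.16 ± 0.16 in miR-186 clones at week 12. Of 21 p53 targets, the pro-apoptotic BBC3 was higher without overlap (2.21% of all genes), at 0.444 to 0.520 FPKM at 0 nM and 0.553 to 1.2 FPKM at 100 nM, with a change of 0.43 ± 0.34 that was 0.06 with a correction for GC content. The death receptor FAS was lower without overlap (3.40% of all genes), at 12.4 to 16.2 FPKM and 8.0 to 10.8 FPKM (-0.55 ± 0.30). The list's median was 0.03.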
